A study of Mus musculus with 6 samples.

Results

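The Ifit genes (interferon-induced proteins with tetratricopeptide repeats) were followed in cultures of mouse macrophages and myeloma cells that received an antibody against CSF1R or a control IgG. The family was taken as 6 genes listed by symbol, Ifit1, Ifit2, Ifit3, Ifit3b, Ifit1bl1 and Ifit1bl2, of 22180 genes measured. Where several probe sets carried a symbol alone, the brightest on average was to be taken, but each of the 6 genes had exactly 1. The genes were chosen with the antibody and IgG values of these same arrays known, so their own differences are given as a description and were not tested.

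Macrophages were grown with M-CSF for 7 days from the bone marrow of 3 mice of the strain C57BL/KaLwRij, the host of this myeloma model. Overnight co-culture followed with 5TGM1-luc, a single murine myeloma line carrying luciferase. Both groups shared these steps, and then 0.5 nM of anti-mouse CSF1R antibody or a control IgG, whose dose was not given separately, was present for 3 days. After 4 washes total RNA was taken and hybridised to GeneChip Mouse Gene 2.0 ST arrays, 3 for each group. The labels do not tie a replicate number to a mouse, so all p-values measure the spread between these arrays, which may be technical.

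IFIT proteins are cytoplasmic proteins that bind RNA. IFIT1 and its close relatives bind RNA whose cap lacks the methyl marks of host messenger RNA, and can keep the translation machinery from using it. The genes are hardly used in resting cells of most kinds and are switched on by type I and type III interferons through a complex that includes STAT2 and IRF9, or directly by IRF3 when a cell senses viral nucleic acid. The DNA letters bound by these factors are the interferon-stimulated response element (ISRE), and macrophages are among the cells that use this programme strongly.

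The promoter letters of the family are shown first because they are a property of the genes that the arrays did not measure. In RefSeq promoter windows of GRCm38.p6, which run from 250 bases before to 50 bases after each start site, the core ISRE letters GAAANNGAAA were searched on both strands. They stood in the window of 5 of 6 Ifit genes and in those of 1079 of 27025 genes (3.99%), or 1131 of 32851 windows (3.44%). In the stretches below, written 5′ to 3′ on the strand of the gene, capitals mark the ISRE letters, read in reverse complement where they lie on the other strand.
Ifit1, chr19:34640765-34640833 (+): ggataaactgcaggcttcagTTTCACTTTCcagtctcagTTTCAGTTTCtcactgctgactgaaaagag
Ifit1bl2, chr19:34640765-34640833 (-): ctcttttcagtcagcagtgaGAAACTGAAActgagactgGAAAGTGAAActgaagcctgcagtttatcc
Ifit3, chr19:34583353-34583436 (+): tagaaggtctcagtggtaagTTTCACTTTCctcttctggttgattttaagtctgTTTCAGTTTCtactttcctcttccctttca
Ifit3b, chr19:34607749-34607832 (+): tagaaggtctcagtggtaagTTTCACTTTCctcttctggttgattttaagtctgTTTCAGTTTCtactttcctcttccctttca
Ifit1bl1, first start, chr19:34602043-34602092 (-): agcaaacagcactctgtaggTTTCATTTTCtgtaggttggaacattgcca
Ifit1bl1, second start, chr19:34599428-34599470 (-): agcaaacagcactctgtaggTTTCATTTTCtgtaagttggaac

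The windows of Ifit1 and of the first Ifit1bl2 start overlapped. These start sites lay 145 bases apart on opposite strands and their windows had 245 bases in common. The same 2 ISRE matches lay in both windows, read from opposite sides. Whether they act on either gene was not tested. In Ifit1 the matches lay at -104 to -95 and -85 to -76 from the start site, and in Ifit1bl2 at -70 to -61 and -51 to -42.

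Ifit3 and Ifit3b had the same letters throughout the stretch that holds their 2 matches. Over the aligned part of their windows 259 of 274 positions were identical (94.5%), with 1 mismatch and 14 gap positions. The matches lay at -156 to -147 and -122 to -113 in Ifit3, and at -188 to -179 and -154 to -145 in Ifit3b.

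Ifit1bl1 has 2 start sites in the promoter table with 1 match each, at -104 to -95 and at -23 to -14. The windows of these 2 starts were alike, with 173 of 179 aligned positions identical (96.6%). The first also aligned with the window of the second Ifit1bl2 start, in which no ISRE letters were found, at 119 of 133 positions (89.5%).

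Ifit2 differed from the others in these windows. Its 2 windows held no ISRE letters, which says only that they are not in this stretch of DNA. One of them held TTCNNNGAA, the letters of the gamma-activated site, at -241 to -233. These letters were found in 2582 of 27025 genes (9.55%) and in no other Ifit gene.

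A stricter form of the element, GAAANNGAAACT, which contains the core letters and was chosen with results of these arrays known, was found in 4 of 6 Ifit genes, Ifit1, Ifit3, Ifit3b and Ifit1bl2. It was present in 82 of 27025 genes (0.303%). Ifit1bl1 had the core letters alone.

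**Figure D1:**
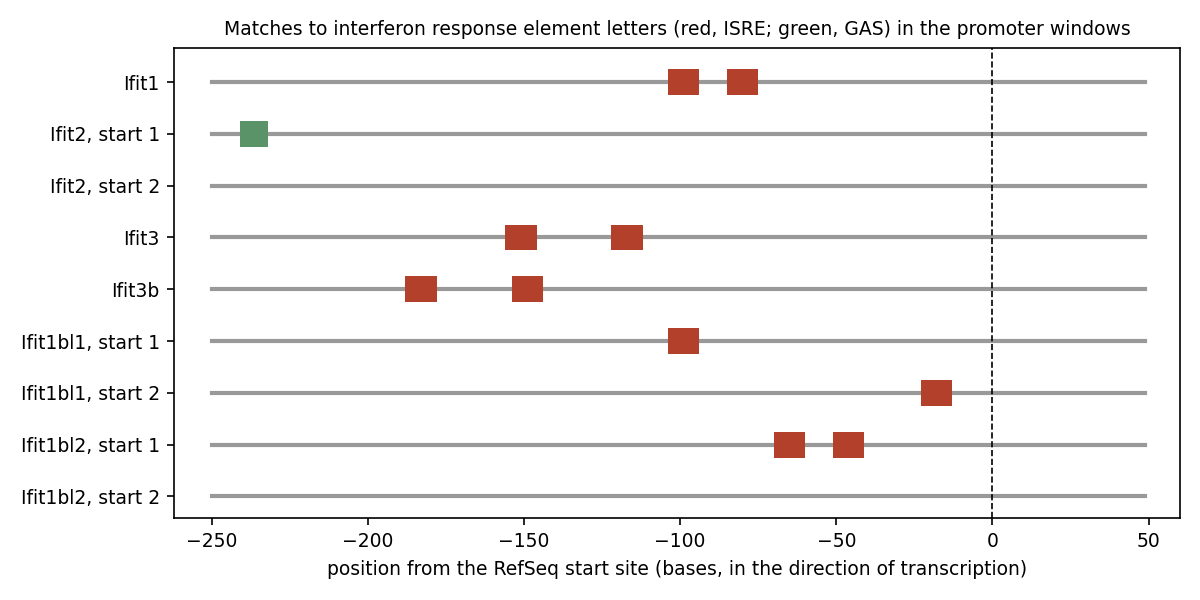
Matches to the ISRE letters (red) and to the gamma-activated site letters (green) in the RefSeq promoter windows of the 6 Ifit genes; the horizontal axis is the position in bases from the start site, in the direction of transcription, and each line is 1 window of 300 bases. Ifit1, Ifit3 and Ifit3b each show 2 ISRE matches before the start site, and the windows of Ifit2 show none.

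In 5 of 6 Ifit genes all 3 antibody arrays lay above all 3 IgG arrays, and Ifit1bl2 was the exception. Over all genes, 16.6% had the antibody arrays above in this way; because the family was selected on this contrast, nothing is read from the comparison of these shares. The differences ran from 0.34 to 2.88 on the log2 scale, with a median of 1.31 over the 6 genes, against -0.02 over all 22180 genes. Values are log2 probe set signals, which were not compared between genes because each probe set has its own brightness. As a guide to background, 4.92 was used, the 95th percentile of the mean signals of 1394 olfactory and vomeronasal receptor genes.

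Ifit1 encodes the member best known for binding incompletely methylated caps. Its log2 signals were 10.40, 10.44 and 10.41 with the antibody and 8.51, 8.57 and 8.62 with IgG. The groups were far apart relative to their spread, the lowest antibody array lying 1.77 above the highest IgG array. The means were 10.41 ± 0.02 and 8.57 ± 0.06 (SD, n = 3 each), a difference of 1.85 (SE 0.05) or 3.60-fold. This was the 66th largest difference of the 22180 genes, and both groups were above the background guide, so the gene was also measured in cultures with IgG.

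Ifit2 encodes a partner that binds AU-rich RNA and forms complexes with the other IFIT proteins. Its signals were 8.77, 8.92 and 8.95 with the antibody and 7.33, 7.33 and 7.26 with IgG. The groups did not overlap and both lay above the guide. The means were 8.88 ± 0.09 and 7.31 ± 0.04 (SD, n = 3 each), which gave a difference of 1.57 (SE 0.06), 2.97-fold.

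Ifit3 encodes a member that stabilises IFIT1 on its RNA in human cells. It gave 6.26, 6.33 and 6.73 with the antibody and 6.12, 6.05 and 6.12 with IgG. The antibody arrays were all higher, but the nearest arrays of the groups were 0.14 apart and replicate 3 of the antibody stood above the other two. The means were 6.44 ± 0.25 and 6.10 ± 0.04 (SD, n = 3 each), a difference of 0.34 (SE 0.12), 1.27-fold. Without that replicate the difference was 0.19, so 1 array set much of its size. Of all genes, 89.7% had smaller differences, whereas for Ifit1 that share was 99.7%.

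Ifit3b encodes a near copy of Ifit3. Its signals were 5.28, 5.74 and 5.71 with the antibody and 4.49, 4.73 and 4.39 with IgG. All 3 IgG arrays were below the background guide and all 3 antibody arrays above it. The means were 5.58 ± 0.26 and 4.54 ± 0.17 (SD, n = 3 each), a difference of 1.04 (SE 0.15), 2.06-fold. With the IgG level at background the fold is less certain than for Ifit1 and Ifit2. Whether probes of Ifit3 and Ifit3b also take up RNA of the other gene was not tested, and the values of both are uncertain to that extent.

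Ifit1bl1 encodes an Ifit1-like protein. Its signals were 7.05, 7.09 and 7.41 with the antibody and 4.36, 4.26 and 4.29 with IgG. The groups were separated by 2.69 at their nearest arrays, and the IgG arrays were all below the guide. The means were 7.18 ± 0.20 and 4.30 ± 0.05 (SD, n = 3 each), a difference of 2.88 (SE 0.10), 7.35-fold. Of all 22180 genes, 5 had a larger difference. Because the IgG level was at background, the fold and this rank are uncertain. In RefSeq's GRCm38.p6 gene table the interval of Ifit1bl1, on the minus strand, covers 3 other members, Ifit1, Ifit3b and Ifit1bl2, and so reaches further upstream than the 2 start sites shown above.

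Ifit1bl2, whose first start has a window overlapping that of Ifit1, encodes a second Ifit1-like protein. Its signals were 5.37, 4.72 and 4.58 with the antibody and 4.63, 4.60 and 4.34 with IgG. The groups overlapped, and the antibody array of replicate 1 alone was above the background guide. The means were 4.89 ± 0.42 and 4.52 ± 0.16 (SD, n = 3 each), a difference of 0.36 (SE 0.21). Without antibody replicate 1 the difference was 0.12. With no mean above the guide, the size of this difference is uncertain.

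**Figure D2:**
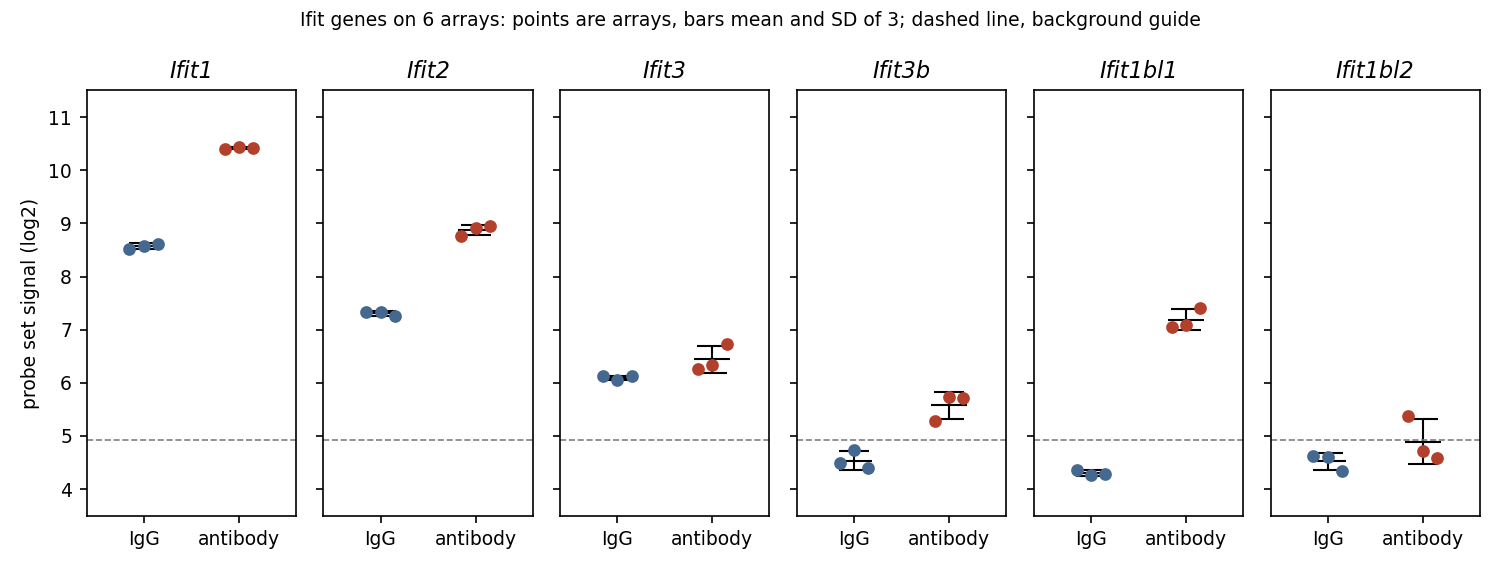
Log2 probe set signal of each Ifit gene on the 6 arrays, 1 panel per gene; points are arrays, horizontal bars the mean and the SD of 3 arrays, and the dashed line the background guide of 4.92. Antibody and IgG arrays are apart for every gene except Ifit1bl2, and the IgG arrays of Ifit3b, Ifit1bl1 and Ifit1bl2 lie under the dashed line.

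The arrays of one group did not rank the members alike. Antibody replicate 3 was the highest of its group for Ifit2, Ifit3 and Ifit1bl1, replicate 1 for Ifit1bl2, and replicate 2 for Ifit1 and Ifit3b. The spread within groups (pooled SD) was 0.04 for Ifit1 and 0.07 for Ifit2, and between 0.14 and 0.32 for the other 4 genes. Over all genes the median of this spread was 0.09 and its 95th percentile 0.24. Ifit1bl2 alone of the 6 was beyond that percentile.

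**Figure D3:**
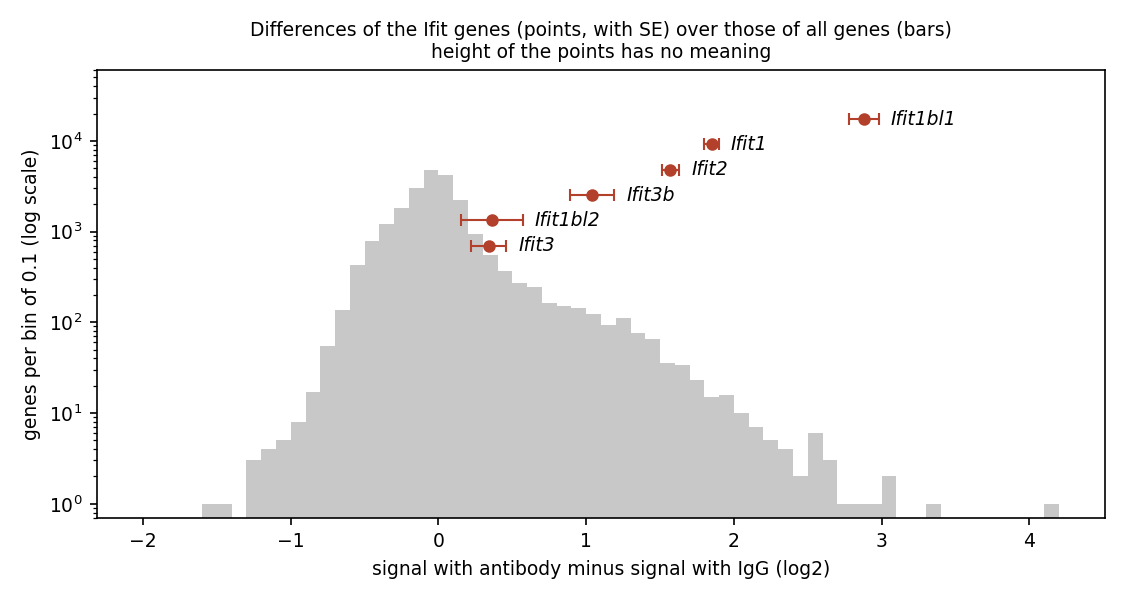
Differences between antibody and IgG for the 6 Ifit genes (red points, with standard errors) above the distribution of all genes (grey bars; number of genes per 0.1 of log2 difference, on a log axis). Ifit1bl1 lies at 2.88, near the right end of the distribution, while Ifit3 and Ifit1bl2 lie at 0.34 and 0.36.

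The genes beside the cluster were next examined. In the order of RefSeq's GRCm38.p6 gene table, the cluster on chromosome 19 runs Ifit2, Ifit3, Ifit1bl1, Ifit3b, Ifit1bl2 and Ifit1, and 5 genes on each side were considered. Of these, 5 had measurements here and 1 rose. Fas, the death receptor gene, was at 6.35 ± 0.15 with the antibody and 5.50 ± 0.04 with IgG (SD, n = 3 each), a rise of 0.85 (SE 0.08, limma, Benjamini-Hochberg adjusted p = 0.00046). Lipa, for lysosomal acid lipase, and Ch25h, for the enzyme that makes 25-hydroxycholesterol, lie between Fas and the cluster. Lipa was at 12.43 ± 0.02 and 12.29 ± 0.03 (limma adjusted p = 0.066) and Ch25h at 5.25 ± 0.21 and 4.91 ± 0.09 (limma adjusted p = 0.072). Both passed the threshold of 0.05 under some other settings of the test, and for Ch25h also without antibody replicate 3. On the other side Slc16a12 was below the guide in both groups (limma adjusted p = 0.70). Pank1, a pantothenate kinase gene, was at 6.48 ± 0.07 and 6.55 ± 0.01 (limma adjusted p = 0.41).

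The interferon pathway around the family was then examined with 9 lists of genes that leave the Ifit genes out. Of 165 listed genes 147 were measured, and 81 rose (55.1%), 17 fell (11.6%) and 49 did not pass the test (limma, Benjamini-Hochberg adjustment over all genes, threshold 0.05). Over all 22180 genes, 12.5% rose and 16.0% fell. Of the 17 that fell, 11 were in the list of eIF3 and the cap-binding complex and 1 in that of cap formation. These lists hold cellular parts that IFIT proteins meet. The median difference of the 147 genes was 0.45. With cyclic loess, another way to bring the arrays to one scale, 87 of the pathway genes were higher and 9 lower, and of all genes 3334 were higher and 2444 lower, against 2766 and 3548 in the fit reported here. Where 0 genes of a list are given for a direction, 0 passed in that direction at limma's unadjusted p under 0.05 as well. The lists differed widely, from 0 of 15 genes higher among eIF3 and the cap-binding complex to 31 of 36 among the other antiviral effectors.

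Among the interferons themselves, 1 of 19 genes rose and 1 fell. Most of the 19 were at background, with 11 means below the guide with the antibody and 12 with IgG. For those genes the lack of a call says little. Ifnb1, for interferon beta, gave 3.01, 3.24 and 2.89 with the antibody and 2.94, 2.95 and 2.74 with IgG. The groups overlapped, every array was below the background guide, and the limma adjusted p was 0.31. Ifna7 rose by 0.52 (SE 0.10, limma adjusted p = 0.010), from 5.08 ± 0.03 to 5.60 ± 0.21. Ifnab, below the guide in both groups, was lower with the antibody by a log2 difference of -0.31 (SE 0.08, limma adjusted p = 0.021). That call was lost when antibody replicate 1, IgG replicate 1 or IgG replicate 2 was left out (adjusted p of 0.052, 0.050 and 0.069). The Ifna genes are near copies of each other, so the value of any one of them is uncertain. Ifng, picked out after its values were seen, was at 5.16 ± 0.11 and 5.32 ± 0.12 (limma adjusted p = 0.24).

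Receptors and kinases moved in part, with 5 of 9 higher and 0 lower. Ifnar1, the first chain of the type I interferon receptor, was at 10.52 ± 0.03 with the antibody and 10.38 ± 0.01 with IgG. Its limma adjusted p was 0.063, and it passed under an intensity trend, cyclic loess and both filters on low signal. Ifnar2, the second chain, rose by 0.29 (SE 0.07, limma adjusted p = 0.016), a call lost without antibody replicate 1 (adjusted p = 0.057) or IgG replicate 1 (adjusted p = 0.050). The kinase gene Jak1, which serves both receptor types, rose by 1.33 (SE 0.04). The chains of the interferon-gamma receptor rose as well, Ifngr1 by 1.06 (SE 0.06) and Ifngr2 by 0.72 (SE 0.05), as did Il10rb by 0.68 (SE 0.05). Tyk2, the kinase bound to IFNAR1, was at 8.71 ± 0.05 and 8.75 ± 0.01 (limma adjusted p = 0.62). Jak2 was at 9.22 ± 0.11 and 9.02 ± 0.03 (limma adjusted p = 0.069). Tyk2 and Jak2 were picked out after their values were seen.

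Transcription factors of the response were higher for 9 of 11 measured genes. Stat2 gave 10.97, 10.95 and 11.06 with the antibody and 9.72, 9.76 and 9.79 with IgG, a rise of 1.24 (SE 0.05, limma adjusted p = 1.7e-05). Irf9, which supplies DNA contacts beside STAT2, gave 8.87, 8.94 and 8.80 against 8.07, 8.01 and 8.01, a rise of 0.84 (SE 0.05, limma adjusted p = 8.1e-05). For both genes the groups were well apart. Irf7, which amplifies the interferon response, gave 11.11, 11.13 and 11.07 with the antibody and 9.83 on each IgG array, a rise of 1.27 (SE 0.04, limma adjusted p = 1.1e-05). Irf8, a factor of the myeloid lineage, rose by 1.73 (SE 0.05), the most of the list, but by 1.13 with the mean of its probe sets in place of the brightest, less than Irf7 and Stat2. Irf1 rose by 1.10 (SE 0.06). Irf3, which can act on Ifit genes without interferon, was at 7.50 ± 0.03 and 7.58 ± 0.07 (limma adjusted p = 0.38), and Nlrc5 did not pass either; both were picked out after their values were seen.

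Sensors of nucleic acid and their adaptors were higher for 15 of 19 genes and lower for 0, with a median of 1.37. The largest rises were those of the toll-like receptor adaptor gene Ticam2 (1.96, SE 0.12) and of the endosomal receptor genes Tlr9 (1.90, SE 0.10) and Tlr7 (1.81, SE 0.09). Ifih1, which encodes the double-stranded RNA sensor MDA5, rose by 1.67 (SE 0.09). The genes that did not pass were Mavs, Cgas, Aim2 and Ticam1, with adjusted p from 0.32 for Ticam1 to 0.71 for Mavs in limma.

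Genes that restrain interferon signalling or remove self nucleic acid went both ways, with 7 of 14 higher and 4 lower. Usp18, which blocks the type I receptor and cleaves ISG15 from proteins, gave 9.48, 9.56 and 9.65 with the antibody and 8.11, 8.08 and 8.13 with IgG, a rise of 1.46 (SE 0.06, limma adjusted p = 1.3e-05). Isg15, the ubiquitin-like modifier, gave 9.21, 9.42 and 9.07 against 7.91, 7.70 and 7.91, a rise of 1.40 (SE 0.11, limma adjusted p = 0.00017). Both genes were separated between the groups on every array. Socs3 rose by 1.26 (SE 0.08) and Samhd1, a nucleotide hydrolase gene, by 0.89 (SE 0.05). The 4 that fell, named after their values were seen, were the phosphatase genes Ptpn2 and Ptpn11 and the RNase H2 subunit genes Rnaseh2a and Rnaseh2b, with differences from -0.26 to -0.41.

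Other antiviral effectors were the list with the largest share of higher genes, 31 of 36, with a median of 1.21 and 0 lower. Ifitm2, which hinders viral fusion, rose by 2.32 (SE 0.07), and the nucleotide kinase gene Cmpk2 by 1.75 (SE 0.05). Mx1, a dynamin-like GTPase gene, rose by 1.73 (SE 0.13) and the ADP-ribosyltransferase gene Parp12 by 1.73 (SE 0.06). Those that did not pass were Oas1c, Isg20, Ifi44l, Zc3hav1 and Ch25h. Of these, Ifi44l was below the background guide in both groups, and Oas1c and Ch25h with IgG alone. Genes commonly used as targets of interferon-gamma were higher for 12 of 16, with a median of 1.09. Here the GTPase genes Gbp5 (2.67, SE 0.10), Iigp1 (2.55, SE 0.09) and Gbp7 (2.44, SE 0.06) and the chemokine gene Cxcl10 (2.37, SE 0.07) rose most, while Gbp4, Cxcl9, Cxcl11 and Ido1 did not pass. Cxcl9, Cxcl11 and Ido1 were below the background guide in both groups, as was Gbp6, which was counted as higher.

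Few genes rose among those for the cellular parts that IFIT proteins meet, the messenger RNA cap and the initiation factors. Of 8 genes for cap formation, methylation and removal, 1 rose and 1 fell, with a median of -0.05. Nudt16, a decapping enzyme gene, rose by 0.42 (SE 0.05, limma adjusted p = 0.0015). Rnmt, the cap guanine methyltransferase gene, was lower by a log2 difference of -0.30 (SE 0.08, limma adjusted p = 0.027), and lost its call under cyclic loess (adjusted p = 0.096) and without antibody replicate 1, antibody replicate 2, IgG replicate 2 or IgG replicate 3. Cmtr1, the gene of the methyltransferase that marks host caps against IFIT1, was not analysed here.

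Of 15 genes for the initiation factor eIF3, which binds IFIT1 and IFIT2, and for the cap-binding complex, 11 fell and 0 rose, with a median of -0.27. Eif4e, the cap-binding protein gene, fell by 0.40 on the log2 scale (SE 0.06, limma adjusted p = 0.0026), Eif3d by 0.34 (SE 0.05) and Eif3i by 0.33 (SE 0.05). Eif3j1 had a log2 difference of -0.49 (SE 0.13, limma adjusted p = 0.034), and the call was lost under cyclic loess (adjusted p = 0.058) and without any of 5 arrays left out in turn. With cyclic loess, 5 of the 15 genes were lower and 1 was higher, and the differences of Eif3d and Eif3i were -0.22 and -0.21.

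**Figure D4:**
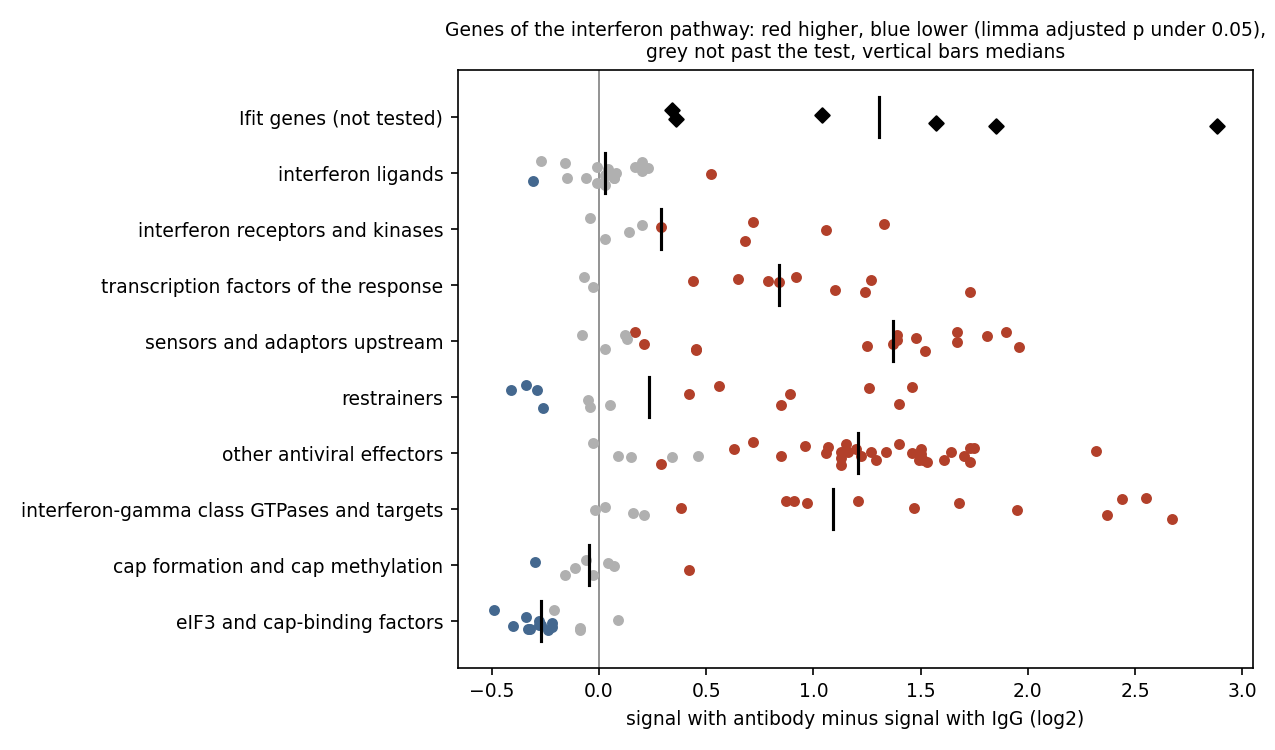
Difference between antibody and IgG (log2) for the Ifit genes (black, not tested) and for the measured genes of the 9 pathway lists; points are genes, vertical bars list medians, red is higher and blue lower at a limma adjusted p under 0.05, and grey did not pass. The ligands cluster around 0, the antiviral effectors around 1.21 and the eIF3 and cap-binding genes around -0.27.

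These shifts stood beside shifts in markers of the cells in the culture. All 9 measured macrophage markers rose, with a median of 1.24, and their summed linear signal was 28281 to 29155 with the antibody and 15737 to 16450 with IgG. Csf1r RNA itself was at 11.72 ± 0.05 with the antibody and 10.60 ± 0.05 with IgG (SD, n = 3 each). Of 10 plasma or myeloma cell markers, 8 fell, with a median of -0.37 and summed signals of 10301 to 10420 against 13524 to 14221. Of 10 fibroblast or stromal markers, 5 fell and 1 rose, with summed signals of 1053 to 1102 against 1953 to 2019. The change in this sum rests mostly on Acta2 (9.11 ± 0.04 against 10.31 ± 0.04) and Postn (6.71 ± 0.01 against 7.79 ± 0.00). The median difference of the 10 was -0.35, and Dcn, which rose, was below the guide in both groups. The part of these shifts in the values of the Ifit genes was not tested. The RNA came from the mixed cells left after 4 washes. In it, more or fewer cells of a type and more or less RNA per cell cannot be told apart. This limit holds for the Ifit genes too.

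Markers of other cells that make or answer interferon gave little. Of 6 genes of plasmacytoid dendritic cells, the main producers of interferon alpha, 0 rose and 1 fell, and Siglech, Ccr9 and Klk1 were below the guide in both groups. Conventional dendritic cell markers were higher for 0 of 6 and lower for 1, and neutrophil markers passed for 0 of 10. Of the neutrophil markers, 9 had means below the guide with the antibody and 8 with IgG. For the conventional dendritic cell markers these numbers were 3 and 2. Of 11 T or NK cell genes 1 rose, Cd4, by 2.00 (SE 0.10), while 8 were below the guide in each group, among them Cd3e, Cd3d and Cd3g. Of 4 B cell genes 1 fell, Cd79b, and 2 were below the guide in each group.

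The genes nearest in profile to the family were taken by the root mean square distance over the 6 arrays from the mean Ifit profile, each gene centred on its own mean, among 11664 genes with a mean of at least 5. The nearest was Tmem159 (distance 0.0334, Pearson r = 0.9988), then Fcgr2b, for an inhibitory Fc receptor (0.0374), and Ddx58, for the RNA sensor RIG-I (0.0377). Myd88, a toll-like receptor adaptor gene (0.0383), and Rtp4, an interferon-induced gene (0.0387), completed the 5. Their differences between the groups, 1.28 to 1.39, were near the 1.34 of the mean profile. With 6 arrays in 2 groups such profiles carry little beyond the difference between groups, and 846 genes had r of at least 0.99.

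Beyond the family, genes with the longer ISRE form, a form chosen with results known, were higher in 27 of 52 measured cases (51.9%) and lower in 3 (5.77%), with a median difference of 0.39. Of the 27, 11 were already in the pathway lists above and 16 were not. Of the 16932 other measured genes with windows, 12.9% were higher and 16.6% lower. For the core letters the shares were 20.6% of 652 genes higher with a match and 12.8% of 16332 without. Over all 9 pathway lists, 24 of 37 genes with the core letters in a window rose, and 33 of 74 without them. Within the other antiviral effectors these counts were 11 of 12 and 11 of 15, and among the interferon-gamma targets 7 of 7 and 1 of 2. Genes thus rose both with and without a match in these windows. Of 18 ligand genes with a window, 10 held the core letters and 0 of those passed the test as higher in limma. Among those 10, Ifna9, singled out after its values were seen, was higher at an unadjusted p under 0.05 (limma adjusted p = 0.076) and lay below the background guide.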

How the data were processed

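GeneChip Mouse Gene 2.0 ST arrays measured 6 RNA samples, 3 with the CSF1R antibody and 3 with IgG, grouped by the labels. The deposited table holds 1 linear intensity per probe set and array. RMA and limma are named, without version or role, in the submitters' processing notes. RMA as usually run makes the arrays' distributions alike, which hides a shift of most genes in 1 direction. Scanner files were not used here, and the array's genome build is not given in the sources used. Array medians ran from 4.88 to 4.95 on the log2 scale. Pearson r over all probe sets was 0.9918 to 0.9934 between arrays of a group and 0.9841 to 0.9851 between groups.

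Values were taken as log2 of the deposited intensity. Of 41345 probe sets, 23521 had 1 gene symbol in the platform annotation, which can be old, 1814 had several and 16010 had none, and the last 2 kinds were not used. This left 22180 genes, and for the 1082 of them with several probe sets the brightest on average was taken. The comparison used lmFit and eBayes of limma 3.58.1 (R 4.3.3), with Benjamini-Hochberg adjustment over all genes and a threshold of 0.05. The script was tested on simulated data. SE is limma's moderated standard error.

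The members, the lists and the settings were chosen with earlier results of these data known. The rule named the Ifit genes, up to 4 called genes with the largest change per list, 10 core genes of the pathway, the neighbours and the 5 nearest profiles; the listed genes without a measured row were not analysed here. Some further genes were named outside the rule, with their values known. The background guide and the longer ISRE form were chosen with results known. Promoter windows came from RefSeq (GRCm38.p6) and were searched and aligned in Python 3.11.15 with biopython 1.88; figures used matplotlib 3.10.9.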

Additional observations from a re-analysis of the deposited data

How the results depend on the processing

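The direction of each of the 6 Ifit differences was the same under the alternatives run for them: median centring, cyclic loess, averaging of probe sets per gene, the replicate block and leaving out each array. An intensity trend, robust variances and 2 filters on low signal (the 25th or the 50th percentile) were run for the tested genes and counts. Of 60 such values for the Ifit genes, 58 moved by less than the spread between replicates, and with cyclic loess Ifit1 moved to 1.96 and Ifit2 to 1.67. The median of the 6 was 1.26 to 1.41 when 1 array was left out, with 1.41 without antibody replicate 1. Pathway genes higher numbered 78 to 87 over all alternatives, and those lower fell from 17 to 9 with cyclic loess, which also turned the split of all genes to 3334 higher and 2444 lower (57.7% of calls higher, against 43.8%). Deviations of same-numbered arrays from their group means had correlations of 0.031, -0.053 and 0.003 over all genes. With 3 arrays per group, such small values cannot settle whether equal numbers mark the same mouse. With the replicate block 79 pathway genes were higher and 15 lower. Of all genes 2569 were higher and 2980 lower in that fit, and the Ifit median stayed at 1.31. Ranked by Pearson r in place of distance, the 5 nearest profiles were Parp12, Wdr91, Stard3, Samhd1 and Mertk, with 0 shared. Of 636 values for other named genes 16 lost and 11 gained a call, and 0 calls reversed. Slc16a12, which was not called, changed sign from -0.13 to 0.09 without antibody replicate 1. The number of arrays limits precision, and Ifit3b, Ifit1bl1 and Ifit1bl2 were at background with IgG. The causes of these changes were not tested.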
